A study of Gallus gallus with 89 samples.

Results

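Guidance genes encode the ephrins, semaphorins, slits and netrins and the Eph, plexin, Robo and UNC5 receptors that bind them. They were taken from a table of single chick cells by gene symbol, and 42 of its 13823 gene rows matched. These were 10 Eph receptors, 4 ephrins, 14 semaphorins, 7 plexins, 5 slit and Robo genes and 2 UNC5 receptors, or 21 ligands and 21 receptors in all. No row matched the netrin symbols sought, so netrins were not analysed here. The 3371 rows that carried an Ensembl identifier in place of a symbol were not searched for further members.

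The cells came from the amniogenic somatopleure, the sheet of ectoderm and underlying mesoderm that folds up to form the amnion. They were wild-type and untreated, from chick embryos at embryonic day 1.5, stage 10, and grafts of more than 15 embryos were pooled, so the 89 cells make up 1 sample and no cell can be tied to an embryo. Each cell was captured on a microfluidic array and its messenger RNA was sequenced to high depth. No p-value or standard error was computed for this single sample: SDs are over cells, and the 95% Clopper-Pearson intervals given with shares cover counting error only.

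Ephrins are ligands held at the cell surface, and they and their Eph receptor tyrosine kinases signal in both directions between touching cells, often to keep tissues apart. Semaphorins, secreted or membrane-bound, act through plexins, which regulate small GTPases and the cytoskeleton, and the class 3 semaphorins mostly need neuropilin co-receptors. Slits are secreted and act through Robo receptors, and UNC5 proteins are netrin receptors that mediate repulsion. In early embryos these families also steer migrating cells, shape vessels and set tissue boundaries outside the nervous system.

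A gene was called detected in a cell at 10 CPM (read counts scaled to 1000000 gene reads) or more, and CPM was compared between cells for 1 gene at a time, since gene lengths were not used. Cells that detected at least 2 of the 3 surface ectoderm genes CDH1, TFAP2A and CLDN3 were called ectoderm-state (27 cells, 30.3% of all). The 62 other cells were divided by CDX2, a homeobox factor of posterior tissue, into 41 CDX2-positive and 21 CDX2-negative cells. Markers that the rule did not use were read beside it. The 8 other measured ectoderm markers were all detected in a higher share of ectoderm-state than of other cells, from the tight junction gene CLDN1 (100% against 17.7%), EPCAM (100% against 45.2%) and SOSTDC1 (74.1% against 3.23%) to KRT19 (100% against 93.5%) and TP63 (11.1% against 8.06%). Ectoderm-state cells detected a median of 1 of 10 lateral plate mesoderm markers. The median was 7 in CDX2-positive and 6 in CDX2-negative cells, and PRRX1, a factor of limb and body wall mesenchyme, was detected in 18.5% of ectoderm-state, 92.7% of CDX2-positive and 80.95% of CDX2-negative cells. The CDX2 classes differed more in HAND2 (95.1% against 52.4%) and COL3A1 (90.2% against 42.9%). TWIST1 went the other way (19.5% against 57.1%), as did TBX5, FOXF1 and PDGFRA by smaller gaps. HAND2 and CDH11 were also detected in 37.04% and 33.3% of ectoderm-state cells.

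Gene reads per cell ran from 328645 to 2381723, with medians of 1545735 in ectoderm-state, 1407465 in CDX2-positive and 1464885 in CDX2-negative cells, and 10 CPM stood for 3.29 to 23.8 reads. Some cells stood apart. More than 20% of gene reads were mitochondrial in 5 cells, of which 3 were CDX2-positive and 2 CDX2-negative, and 5 cells detected 5 or more of 11 endothelial markers, of which 1 was CDX2-positive and 4 CDX2-negative. Values are given below without those cells for the CDX2-negative class, where 16 cells remained. At least 3 mesoderm markers were detected in 3 ectoderm-state cells. Of these, 1 cell detected 8 of the 10 mesoderm markers and 2 of the 3 ectoderm markers. It was kept, and it counts below as an ectoderm-state cell detecting SEMA3D, SEMA5B, SEMA6A, SEMA6D, EFNB2 and UNC5C. The sample titles carried 2 prefixes, X09 (58 cells) and X29 (31 cells). The labels leave these unexplained. They were spread unevenly, as the X09 cells numbered 14 of 27 ectoderm-state, 33 of 41 CDX2-positive and 11 of 21 CDX2-negative cells.

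Guidance genes were widespread but patchy. Of the 42 genes, 41 were detected in at least 1 cell, the exception being SEMA4C. Detection reached 50% of all cells for 4 genes, namely EFNB1 (69.7%), SLIT3 (67.4%), UNC5B (64.04%) and UNC5C (61.8%). Another 30 genes were detected in 10% to under 50% of cells and 8 in under 10%, these being EPHA3, EPHA4, EPHA7, PLXNA4, SEMA3E, SEMA4C, SEMA4G and SEMA7A. A single ectoderm-state cell detected between 2 and 25 guidance genes, with a median of 12. The range was 0 to 20 in CDX2-positive cells, with a median of 8, and 0 to 22 in CDX2-negative cells, with a median of 10.

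**Figure D1:**
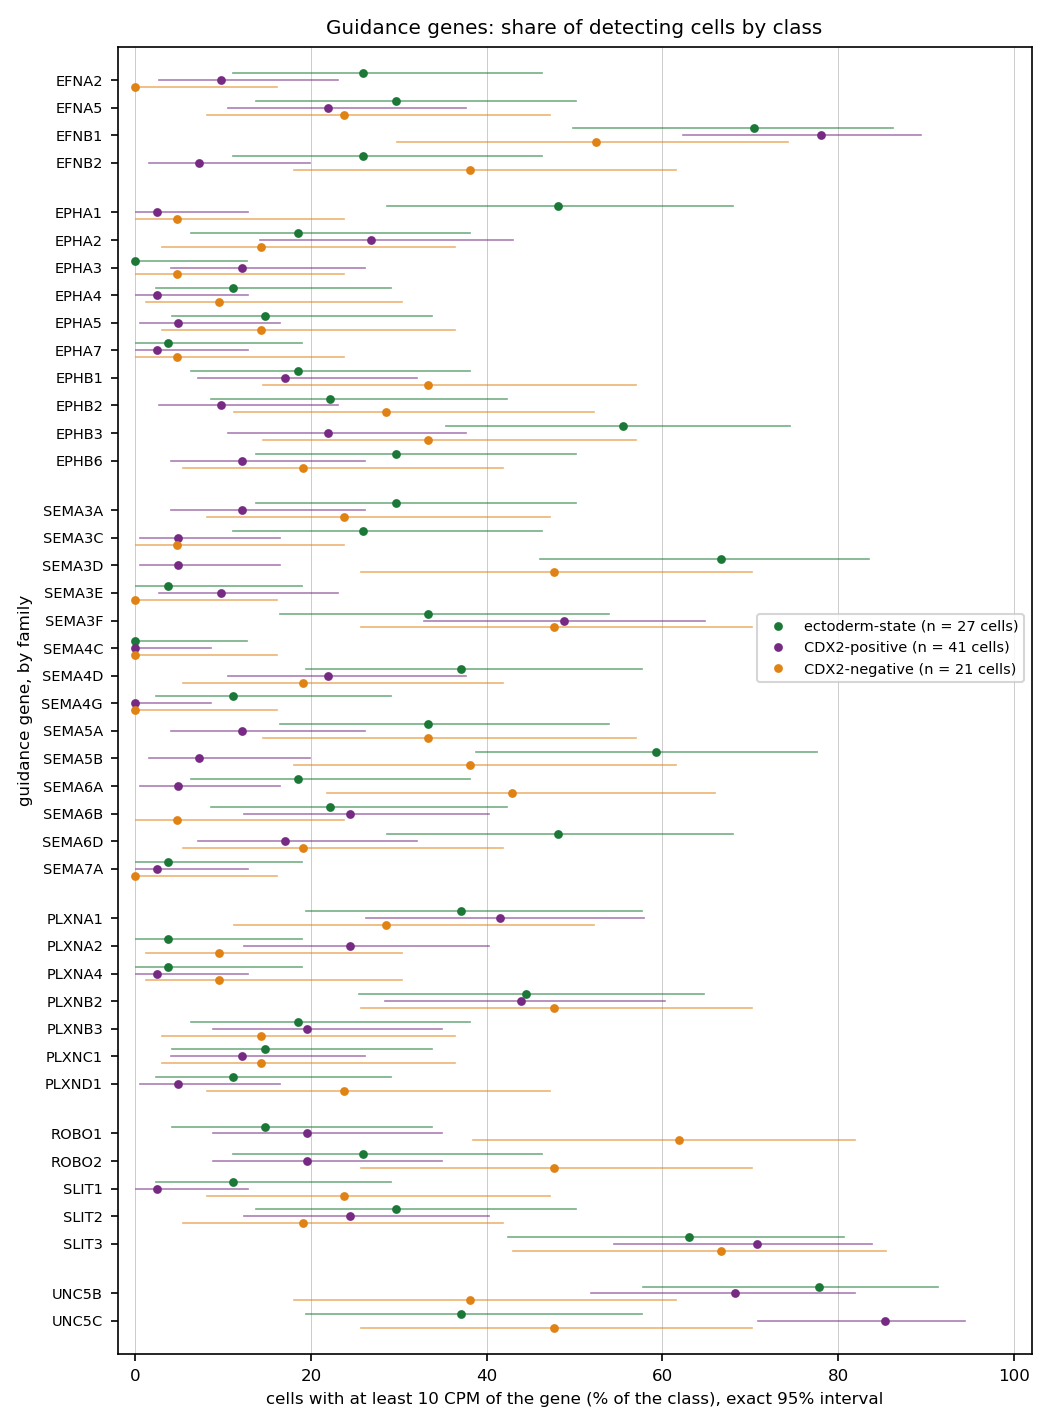
Share of cells detecting each of the 42 guidance genes (x axis, % of the class, at least 10 CPM), by family (y axis), with exact 95% intervals as lines. EFNB1 and SLIT3 were detected in over 50% of cells in all 3 classes, EPHA1 stood out in ectoderm-state cells, and SEMA3D and SEMA5B were frequent in ectoderm-state and CDX2-negative cells but not in CDX2-positive cells.

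A gene was said to be higher in a class by a rule of size, not by a test. It had to be detected in at least 10% of either class, its mean CPM plus 1 had to be at least 2 times higher, its share of detecting cells had to be at least 20 percentage points higher, and both had to point the same way in X09 and in X29 cells. Between ectoderm-state and other cells, 36 guidance genes could be judged by this rule, and 6 of them (16.7%) were higher in ectoderm-state cells, where the rule picked 4.9% of all 9751 genes judged. A single guidance gene (2.78%) was higher in the other cells, against 4.6% of all genes. The median difference in share was 6.18 points for the guidance genes and 0 for all genes. The 6 genes were 4 of 11 semaphorins and 2 of 8 Eph receptors, and none of the ephrins, plexins, slits and Robos that could be judged was among them. In every class the lowest cell had 0 CPM of each of the 7 genes, so medians and highest values are given below.

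EPHA1, a receptor for ephrin-A ligands that is typical of epithelia, was detected in 13 of 27 ectoderm-state cells (48.1%, interval 28.7 to 68.05) and in 2 of 62 other cells (3.23%, 0.393 to 11.2). Its level in ectoderm-state cells had a median of 6.88 CPM and a highest value of 247 CPM, with a mean of 44.04 ± 65.4 (SD, n = 27 cells). In the other cells the median was 0, the highest value 124 and the mean 2.82 ± 16.96 (SD, n = 62 cells). The classes overlapped at 0, and 13 of the 15 detecting cells were ectoderm-state. The ratio of means was 11.8 and ranged from 9.74 to 24.6 when each cell was left out in turn. Shares were 50.0% against 2.27% in X09 cells and 46.2% against 5.56% in X29 cells.

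EPHB3, a receptor for ephrin-B ligands, was detected in 15 of 27 ectoderm-state cells (55.6%, 35.3 to 74.5) and 16 of 62 other cells (25.8%, 15.5 to 38.5). The ectoderm-state cells had a median of 29.7 CPM, a highest value of 342 and a mean of 60.7 ± 86.98 (SD), against a median of 0, a highest value of 136 and a mean of 13.3 ± 27.6 in the other cells, a ratio of 4.32. EPHB3 was thus not confined to ectoderm-state cells: it was also found in 21.95% of CDX2-positive and 33.3% of CDX2-negative cells. The gap in share was smaller in X29 cells (46.2% against 33.3%) than in X09 cells (64.3% against 22.7%), and whether the gaps differ was not tested.

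SEMA3D, a secreted class 3 semaphorin, was detected in 18 of 27 ectoderm-state cells (66.7%, 46.04 to 83.5) and 12 of 62 other cells (19.4%, 10.4 to 31.4). Levels in ectoderm-state cells had a median of 15.2 CPM, a highest value of 347 and a mean of 54.4 ± 88.6 (SD), 3.42 times that of the other cells at 15.2 ± 39.4. The other cells were not uniform. SEMA3D was detected in 2 of 41 CDX2-positive cells (4.88%, 0.596 to 16.5), none above 15.6 CPM, and in 10 of 21 CDX2-negative cells (47.6%, 25.7 to 70.2), up to 205 CPM.

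SEMA5B, a transmembrane semaphorin with thrombospondin repeats, had the same order of classes. It was detected in 16 of 27 ectoderm-state cells (59.3%, 38.8 to 77.6), with a median of 21.4 CPM, a highest value of 338 and a mean of 71.4 ± 91.8 (SD). In the other cells it was detected in 11 of 62 (17.7%, 9.20 to 29.5), with a mean of 17.7 ± 50.4, a ratio of 3.86. Detection was 3 of 41 in CDX2-positive (7.32%, 1.53 to 19.9) and 8 of 21 in CDX2-negative cells (38.1%, 18.1 to 61.6). Both semaphorins were detected together in 11 of 27 ectoderm-state cells, 3 of 21 CDX2-negative cells and 0 of 41 CDX2-positive cells, and 4 ectoderm-state cells detected neither.

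The other semaphorins higher in ectoderm-state cells rested on fewer cells. SEMA6D, a transmembrane semaphorin that signals through plexin-A receptors, was detected in 13 of 27 ectoderm-state cells (48.1%) and 11 of 62 other cells (17.7%). Its median was 0 in both classes, its highest values were 684 and 475 CPM, and its means were 67.1 ± 161 and 16.4 ± 65.7 (SD). The ratio of 3.91 moved between 2.55 and 6.89 on leaving out a single cell, and 1 ectoderm-state cell held 37.8% of that class's summed CPM. SEMA3C, a secreted semaphorin known for its role in the cardiac outflow tract, was detected in 7 of 27 ectoderm-state cells (25.9%, 11.1 to 46.3) and 3 of 62 other cells (4.84%, 1.01 to 13.5), with means of 26.7 ± 58.1 and 2.23 ± 11.2 CPM. SEMA3C no longer met the size rule when any 1 of its 7 detecting ectoderm-state cells was left out.

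UNC5C was the guidance gene higher in the other cells. It encodes a netrin receptor and was detected in 45 of 62 other cells (72.6%, 59.8 to 83.2) and 10 of 27 ectoderm-state cells (37.04%, 19.4 to 57.6). The other cells had a median of 83.4 CPM, a highest value of 526 and a mean of 105 ± 112 (SD), against a median of 0, a highest value of 324 and a mean of 39.8 ± 76.9 in ectoderm-state cells, a ratio of 2.598. UNC5C was seen most often in CDX2-positive cells, in 35 of 41 (85.4%, 70.8 to 94.4) with a median of 94.7 CPM, and in 10 of 21 CDX2-negative cells (47.6%). The latter pair of classes differed by 37.7 points, but the ratio of means was 1.49, under the limit of 2. In the 16 CDX2-negative cells without endothelial markers at 5 or more or a high mitochondrial share, the share was 62.5%.

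**Figure D2:**
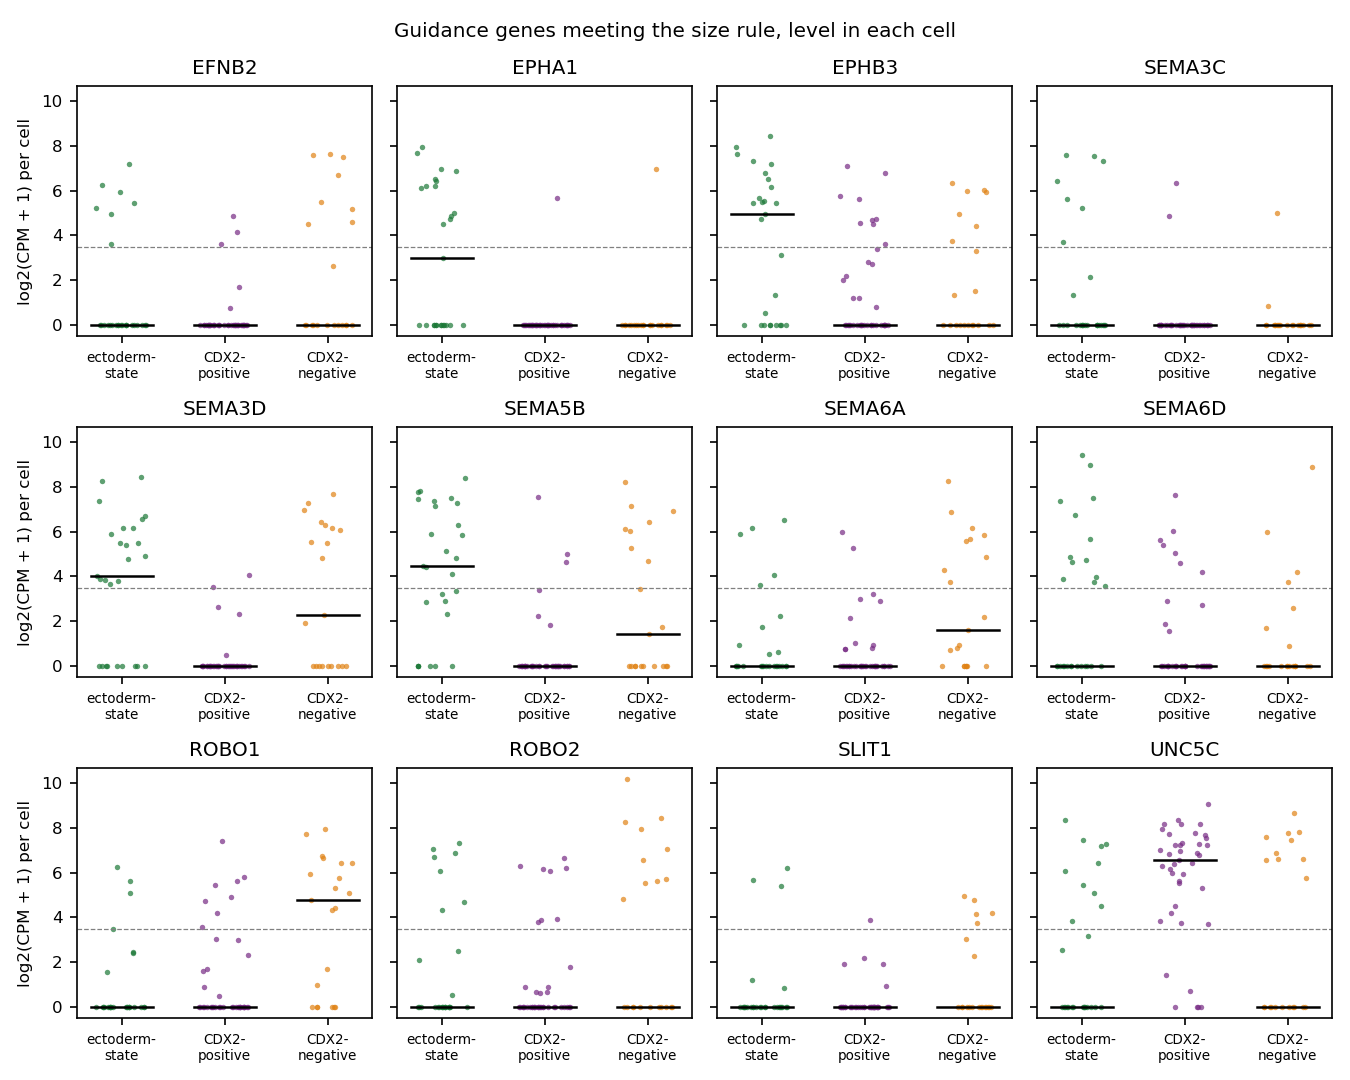
Level of the 12 guidance genes that met the size rule in either comparison, as log2(CPM + 1) per cell (y axis) in the 3 classes (x axis). Each point is 1 cell, thick bars are class medians and the dashed line is the detection limit of 10 CPM, and in every panel some cells of each class lie at 0.

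Which genes met the rule changed with the settings. At 50 CPM, applied to the class markers too, 14 cells were ectoderm-state and none of the 6 genes above met the rule, while EPHA5 and EPHB6 did, and UNC5C was replaced by PLXNB2. In X09 cells alone 5 of the 6 met it, all but SEMA3D, and in X29 cells alone 4 of the 6, all but EPHB3 and SEMA5B. SEMA6D failed it at a limit of 1 read or thinned to a common depth, SEMA3C and EPHB3 with 1 ectoderm marker required, and SEMA3C, SEMA5B and UNC5C with all 3 required.

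UNC5B, EFNA2 and ROBO1 lay just outside the rule between ectoderm-state and other cells. UNC5B, a netrin receptor best known from blood vessels, was detected in 77.8% of ectoderm-state cells, 19.7 points above the other cells, with a ratio of means of 2.18. EFNA2, a lipid-anchored ligand of EphA receptors, was detected in 25.9% against 6.45%, a difference of 19.5 points with a ratio of 3.14. ROBO1 lay on the other side, its share being 19.1 points lower and its mean 3.34 times lower in ectoderm-state cells. SEMA4G was further from the limit, at 11.1 points. It was detected in 3 of 27 ectoderm-state cells and 0 of 62 other cells, a count that leaves up to 5.78% possible by the exact interval and 4.84% by a limit of 3 counts. EPHA3 reached 10% in neither class and could not be judged by the rule. It was detected in 0 of 27 ectoderm-state cells, with bounds of 12.8% and 11.1% in the same order, and in 6 of 62 other cells (9.68%).

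Among the other cells, CDX2-negative cells had more of several guidance genes and CDX2-positive cells had more of none by the rule. Of 32 guidance genes that could be judged, 7 (21.9%) were higher in CDX2-negative cells, where the rule picked 2.48% of all 9280 genes judged. For CDX2-positive cells the count was 0 of 32, against 3.93% of all genes. SEMA6B lay just outside the rule on that side, at 24.4% against 4.76%, 19.6 points apart with a ratio of means of 3.23. UNC5B was detected in 68.3% of CDX2-positive and 38.1% of CDX2-negative cells, but its ratio of means was 1.54, under the limit of 2. The median difference in share, CDX2-positive minus CDX2-negative, was -2.90 points for the guidance genes and 4.07 points for all genes. The 7 were the ligands EFNB2, SEMA3D, SEMA5B, SEMA6A and SLIT1 and the receptors ROBO1 and ROBO2, and no Eph receptor or plexin met the rule. EPHB2 came close in CDX2-negative cells, at 28.6% against 9.76%, 18.8 points apart with a ratio of means of 4.57. It met the rule in X09 cells alone, thinned to a common depth, and with CPM taken without mitochondrial genes. The same held with 1 ectoderm marker required and without cells with 1 of 3 ectoderm markers. Since the CDX2-negative class held 4 of the 5 cells with endothelial markers, its values are also given for the 16 cells left without those and without the cells of high mitochondrial share. The CDX2-positive class was not cut in the same way. It kept 3 cells of high mitochondrial share and 1 with endothelial markers, so the 16-cell values are not a matched comparison.

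EFNB2, a transmembrane ephrin known for marking arteries and the boundaries between somites, was detected in 8 of 21 CDX2-negative cells (38.1%, 18.1 to 61.6) and 3 of 41 CDX2-positive cells (7.32%). The highest CDX2-negative cell had 195 CPM and the highest CDX2-positive cell 27.8 CPM, with means of 37.98 ± 67.6 and 1.44 ± 5.26 (SD) and a ratio of 15.98. Its median was 0 in both classes. EFNB2 was detected in 7 of the 16 remaining cells (43.8%), each of which had at most 3 of the 11 endothelial markers. In ectoderm-state cells it was found in 7 of 27 (25.9%), 1 of 14 with prefix X09 and 6 of 13 with prefix X29.

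ROBO1, a slit receptor, was detected in 13 of 21 CDX2-negative cells (61.9%, 38.4 to 81.9), 8 of 41 CDX2-positive cells (19.5%, 8.82 to 34.9) and 4 of 27 ectoderm-state cells (14.8%). Its median in CDX2-negative cells was 26.01 CPM and its highest value 248 CPM, against 0 and 171 in CDX2-positive cells. Means were 51.4 ± 68.8 and 10.3 ± 29.1 (SD), a ratio of 4.65 that reached 7.22 on leaving out 1 cell. Detection was 81.2% in the 16 remaining cells. Shares in CDX2-negative and CDX2-positive cells were 63.6% and 18.2% with prefix X09, and 60% and 25% with prefix X29.

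ROBO2, the second slit receptor of the table, was detected in 10 of 21 CDX2-negative cells (47.6%, 25.7 to 70.2) and 8 of 41 CDX2-positive cells (19.5%). The highest value was 1141 CPM in a CDX2-negative cell and 100.4 CPM in a CDX2-positive cell, and means were 116 ± 257 and 10.6 ± 25.9 (SD). That 1 CDX2-negative cell held 46.98% of its class's summed CPM, and without it the ratio of means went from 10.04 to 5.63. The cell was not among the 16 remaining cells, of which 9 detected ROBO2 with a mean of 80.5 ± 116 CPM. ROBO1 and ROBO2 were detected together in 8 of 21 CDX2-negative, 4 of 41 CDX2-positive and 0 of 27 ectoderm-state cells.

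SLIT1, a ligand of both Robo receptors, was low throughout. It was detected in 5 of 21 CDX2-negative cells (23.8%, 8.22 to 47.2), none above 30.04 CPM, and 1 of 41 CDX2-positive cells (2.44%, 0.0617 to 12.9), with means of 5.39 ± 9.39 and 0.578 ± 2.24 CPM and a ratio of 4.05. Of the 16 remaining cells, 3 detected SLIT1. SLIT1 failed the rule when any 1 of its 5 detecting cells, or the cells with endothelial markers, were left out. The more widely detected slit was SLIT3, found in 62.96% of ectoderm-state, 70.7% of CDX2-positive and 66.7% of CDX2-negative cells with means of 58.7, 74.1 and 115 CPM. SLIT2 was detected in 29.6%, 24.4% and 19.05% of these classes, and neither gene met the rule in either comparison.

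The 3 semaphorins higher in CDX2-negative cells included both that were also higher in ectoderm-state cells. The 2 comparisons share the CDX2-positive and CDX2-negative cells, so their values are set side by side only. SEMA3D had means of 43.1 ± 58.999 CPM in CDX2-negative and 0.869 ± 3.02 CPM (SD) in CDX2-positive cells, a ratio of 23.6 that stayed between 19.3 and 29.4 on leaving out any cell. Detection of SEMA3D was 54.5% against 6.06% in X09 cells and 40% against 0% in X29 cells, and it was 10 of 16 in the remaining CDX2-negative cells. SEMA5B had means of 40.2 ± 72.4 and 6.22 ± 29.2 CPM, a ratio of 5.72 that ranged from 3.94 to 14.9 on leaving out 1 cell, and it was detected in 7 of the 16 remaining cells with a mean of 34.3 ± 46.5 CPM. SEMA6A, a transmembrane semaphorin that binds plexin-A receptors, was detected in 9 of 21 CDX2-negative cells (42.9%, 21.8 to 65.98), 2 of 41 CDX2-positive cells (4.88%) and 5 of 27 ectoderm-state cells (18.5%). Its means were 33.7 ± 68.9 and 3.13 ± 11.2 CPM in CDX2-negative and CDX2-positive cells, a ratio of 8.40, and 1 cell held 42.7% of the CDX2-negative sum. The same cell held the highest CDX2-negative values of ROBO2 (1141 CPM) and SEMA5B (296 CPM, 34.99% of the class sum). It had 453090 gene reads, 26.3% of them mitochondrial, and detected 9 of the 11 endothelial markers. Without that cell the ratio was 5.15, and 8 of the 16 remaining cells detected SEMA6A with a mean of 25.3 ± 33.7 CPM.

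At 50 CPM none of these 7 genes met the rule, at 1 read ROBO2 failed it, and SLIT1 failed it thinned to a common depth or with all 3 ectoderm markers required. In X09 cells alone EFNB2, ROBO1, SEMA3D and SEMA6A met it, and in X29 cells alone all but EFNB2 did.

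**Figure D3:**
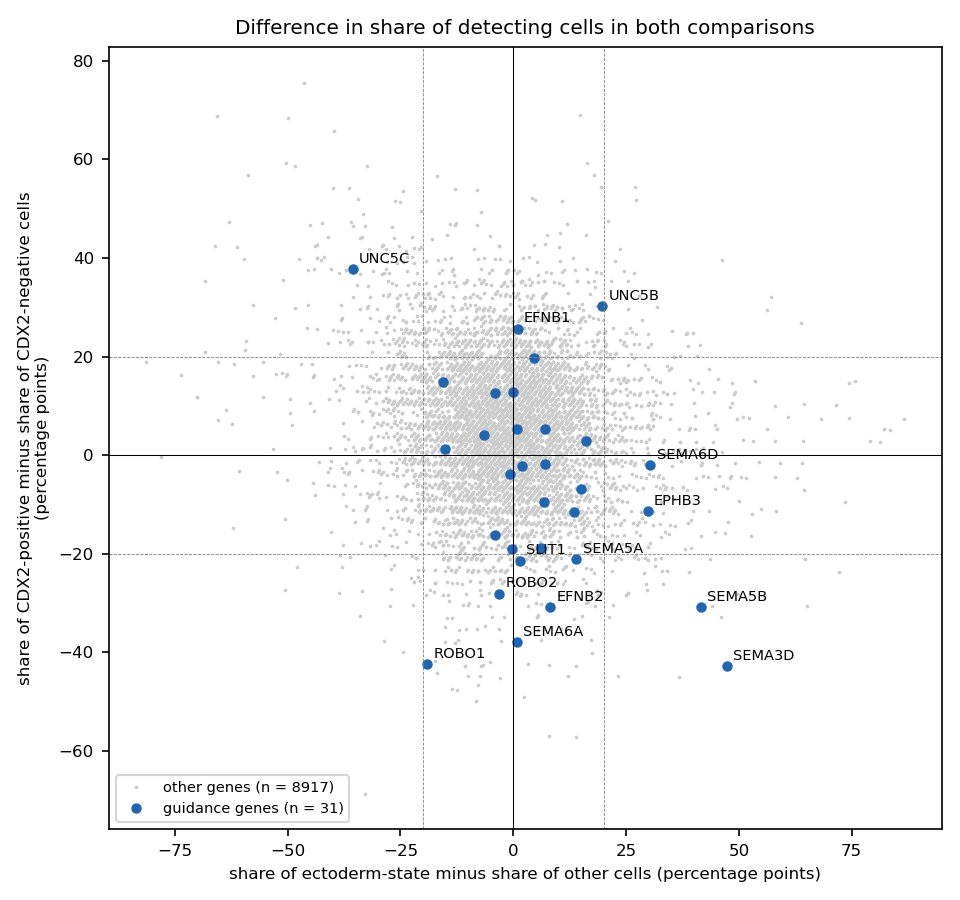
Difference in the share of detecting cells between ectoderm-state and other cells (x axis, percentage points) and between CDX2-positive and CDX2-negative cells (y axis, percentage points), for genes judged in both comparisons (31 guidance genes in blue, 8917 other genes in grey, dashed lines at 20 points). SEMA3D and SEMA5B lie at the lower right, ROBO1 at the lower left and UNC5C at the upper left.

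The most widely detected of the remaining ligands and receptors did not meet the rule in either comparison. EFNB1, a transmembrane ephrin, was detected in 70.4% of ectoderm-state, 78.05% of CDX2-positive and 52.4% of CDX2-negative cells, with means of 64.8, 76.4 and 42.9 CPM, and EFNA5 in 29.6%, 21.95% and 23.8%. Among Eph receptors outside the rule, EPHB1 was detected in 18.5%, 17.1% and 33.3% of these classes and EPHA2 in 18.5%, 26.8% and 14.3%. SEMA3F, a secreted semaphorin that acts through neuropilin-2, was detected in 33.3%, 48.8% and 47.6%. SEMA4D, a transmembrane ligand of plexin-B receptors, was detected in 37.04%, 21.95% and 19.05%. The plexin PLXNB2 was detected in 44.4%, 43.9% and 47.6% and PLXNA1 in 37.04%, 41.5% and 28.6%. None of the 6 plexins that could be judged met the rule in either comparison, and PLXNA4 could not be judged in either.

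PLXND1, a plexin known from vessel patterning and chosen here after its values were seen, was detected in 5 of 21 CDX2-negative cells (23.8%) and 2 of 41 CDX2-positive cells (4.88%), 18.9 points apart. It was detected in all 3 CDX2-negative cells that had endothelial markers without a high mitochondrial share, and in 1 of the 16 remaining cells (6.25%).

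Taken by subfamily, the share of cells with at least 1 member showed where ligands and receptors were found. At least 1 class 5 semaphorin was detected in 70.4% of ectoderm-state, 17.1% of CDX2-positive and 57.1% of CDX2-negative cells, and at least 1 class 3 semaphorin in 88.9%, 58.5% and 76.2%. Plexin-A receptors were detected in 40.7%, 51.2% and 38.1% and plexin-B receptors in 44.4%, 51.2% and 61.9% of these classes. A Robo receptor was detected in 40.7%, 29.3% and 71.4%, and in 87.5% of the 16 remaining CDX2-negative cells, whereas a slit was detected in 77.8%, 73.2% and 76.2%. An ephrin-B was detected in 70.4%, 78.05% and 66.7%, and an EphB receptor in 77.8%, 53.7% and 71.4%.

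**Figure D4:**
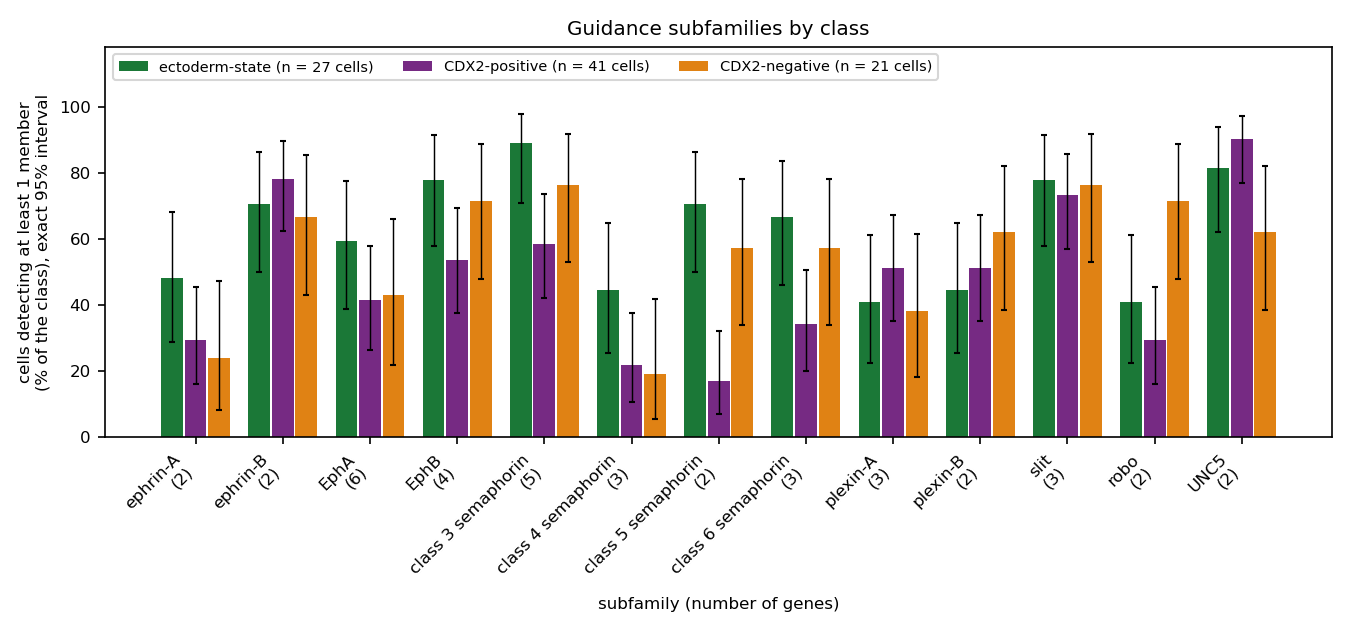
Share of cells detecting at least 1 member of each guidance subfamily (y axis, % of the class) by subfamily (x axis, number of genes in brackets), with exact 95% intervals. Class 5 semaphorins were found in 17.1% of CDX2-positive cells against 70.4% and 57.1% of the other classes, while slits were found in 73.2% to 77.8% of every class.

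Ligands and receptors were next read as pairs. A list of 181 pairs held 68 with both genes in the table. It paired genes by class, such as every class 3 semaphorin with every plexin-A and with PLXND1. A listed pair is thus not a claim that these 2 proteins are known to bind. Between ectoderm-state and other cells 50 pairs could be judged: in 14 of them 1 gene met the rule and in 36 neither did. No pair could be split between the layers, since UNC5C, the gene higher in the other cells, is in none of the 68 pairs. Between CDX2-positive and CDX2-negative cells 38 pairs could be judged. A split was again not possible over all cells, since no guidance gene was higher in CDX2-positive cells. Splits did arise within a title prefix. In X29 cells alone PLXNA1 was higher in CDX2-positive cells (4 of 8 cells, 50%, against 3 of 10, 30%). Its listed ligands SEMA3D, SEMA3F, SEMA5B and SEMA6A were higher in CDX2-negative cells there. The listed pair SEMA6B and PLXNA4 was split the opposite way in X29 cells, with the ligand higher in CDX2-positive cells. In X09 cells alone PLXNA2 was higher in CDX2-positive cells and its listed ligands SEMA3D and SEMA6A in CDX2-negative cells. Within 1 prefix the rule could not ask for agreement between prefixes, and some of these differences turned round in the other prefix. PLXNA2 was detected in 1 of 8 CDX2-positive and 2 of 10 CDX2-negative X29 cells. In X09 cells the counts were 18 of 33 and 4 of 11 for SEMA3F, and 1 of 33 and 0 of 11 for PLXNA4. The shares of PLXNA1, SEMA3D, SEMA5B, SEMA6A and SEMA6B kept their direction. In 2 pairs, SLIT1 with ROBO1 and SLIT1 with ROBO2, both genes were higher in CDX2-negative cells. Both pairs rest on SLIT1. It failed the rule on leaving out any 1 of its 5 detecting cells or the cells with endothelial markers, and these 2 pairs were then lost. Other listed pairs arose in alternative runs, such as EFNB2 with EPHB2 in X09 cells alone and thinned to a common depth. At the level of single cells, the 2 of the 68 pairs most often detected together are given. EFNB1 and its receptor EPHB3 were detected together in 25 of 89 cells. These were 12 of 27 ectoderm-state, 8 of 41 CDX2-positive and 5 of 21 CDX2-negative cells. SLIT3 and ROBO1 were detected together in 22 cells, or 12 of 21 CDX2-negative, 7 of 41 CDX2-positive and 3 of 27 ectoderm-state cells. Singly, EFNB1 was detected in 62 of the 89 cells, EPHB3 in 31, SLIT3 in 60 and ROBO1 in 25. Whether the joint counts exceed what these frequencies give was not tested.

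Co-receptors and other ligands of the pathways gave 17 measured genes of 22 listed. Of 14 judged between ectoderm-state and other cells, NTNG1 and GPC1 were higher in ectoderm-state cells and NRP1 in the other cells, or 14.3% and 7.14% of those judged, against 4.9% and 4.6% of all genes. NRP1, the neuropilin that binds class 3 semaphorins and VEGF, was detected in 18 of 21 CDX2-negative cells (85.7%), 7 of 41 CDX2-positive cells (17.1%) and 2 of 27 ectoderm-state cells (7.41%), with means of 167, 10.7 and 8.003 CPM. It was detected in 13 of the 16 remaining CDX2-negative cells. NRP2 was detected in 37.04% of ectoderm-state, 41.5% of CDX2-positive and 52.4% of CDX2-negative cells, and the netrin and RGM receptor NEO1 in 59.3%, 65.9% and 52.4%, and neither met the rule. The netrin receptor DCC was not analysed here. GPC1, a heparan sulfate proteoglycan that can bind slits, was detected in 88.9% of ectoderm-state and 30.6% of other cells, and NTNG1, a membrane-anchored netrin relative, in 44.4% and 19.4%. Of 13 judged by CDX2, NRP1 was higher in CDX2-negative cells and SDC4 in CDX2-positive cells, each 7.69% of those judged, against 2.48% and 3.93% of all genes. SDC4, also a heparan sulfate proteoglycan, was detected in 41.5% of CDX2-positive and 9.52% of CDX2-negative cells and failed the rule on leaving out any of 8 cells.

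Of the 42 intracellular effectors listed, 33 were measured. Of 31 judged between ectoderm-state and other cells, 3 (9.68%) were higher in the other cells and 1 (3.23%) in ectoderm-state cells, against 4.6% and 4.9% of all genes. SRGAP1, a GTPase-activating protein that acts downstream of Robo receptors, was detected in 53 of 62 other cells (85.5%) and 2 of 27 ectoderm-state cells (7.41%), with means of 212 ± 259 and 7.21 ± 25.4 CPM (SD) and medians of 146 and 0. It was detected in 85.4% of CDX2-positive and 85.7% of CDX2-negative cells, unlike ROBO1 and ROBO2. Its relative SRGAP3 was detected in 40.3% of other and 18.5% of ectoderm-state cells, and 1 cell ended that call when left out. PDZRN3, a ubiquitin ligase known to act in ephrin-B signalling, was detected in 46.8% and 14.8%. RND2 was higher in ectoderm-state cells (51.9% against 17.7%). Of 29 effectors judged by CDX2, 1 (3.45%) was higher in CDX2-negative cells, against 2.48% of all genes. This was RGS3, which can bind ephrin-B tails, detected in 28.6% of CDX2-negative and 4.88% of CDX2-positive cells, and it was detected in 2 of the 16 remaining cells (12.5%).

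Markers of other tissues moved with some of these classes. In ectoderm-state cells 7 of 11 measured endothelial markers, among them CDH5, TIE1 and TEK, were detected in 0 of 27 cells, KDR, LMO2 and EGFL7 in 3.70% each, and PECAM1 in 44.4%, above its 27.4% in the other cells. The summed level of the 11 markers ran from 0 to 236 CPM there, from 0 to 7889 CPM in CDX2-positive cells and from 0 to 9523 CPM in CDX2-negative cells, with medians of 28.9, 40.8 and 192 CPM. The neural crest marker TFAP2B was detected in 22.2% of ectoderm-state, 0% of CDX2-positive and 9.52% of CDX2-negative cells, and SOX9 in 37.04%, 4.88% and 19.05%. ETS1, the last of the 3 measured, was detected in 14.8%, 19.5% and 28.6%. Of the neural plate markers SOX3 was detected in 44.4%, 4.88% and 0% and PAX6 in 7.41%, 0% and 0%. Of the paraxial and intermediate mesoderm markers MEOX1 was detected in 0%, 26.8% and 4.76% and OSR1 in 0%, 0% and 23.8%, so both differed with the CDX2 classes. PAX2 was detected in 3.70%, 0% and 4.76%. Among endoderm markers APOA1 was detected in 14.8%, 78.05% and 61.9% and TTR in 0%, 17.1% and 14.3%. SOX17 was detected in 0%, 0% and 9.52%, and FOXA2 went the other way with 3.70%, 2.44% and 0%. Among blood markers HBZ was detected in 0%, 24.4% and 28.6% and HBA1 in 0%, 4.88% and 4.76%. LCP1 was detected in 0%, 2.44% and 0% and SPI1 in 0%, 0% and 4.76%. The part of such cells in the guidance gene values was not tested.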

How the data were processed

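Per the labels' protocols, tissue was dissociated with trypsin and EDTA and strained, single cells were captured and photographed on a Fluidigm C1 array, and cDNA (SMARTer v4) was made into Nextera XT libraries for paired-end HiSeq sequencing. The deposited values are raw read counts per gene in 89 cells. The submitters' processing notes name HISAT2 2.1.0, featureCounts and the build GRCg6a. Counting settings, strand included, were not stated in the sources at hand, so reads of overlapping genes cannot be told apart. Without molecular identifiers, copies of 1 molecule count more than once.

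CPM was derived here from the deposited counts of 13823 gene rows. The 3 spike-in rows, 5.99% of reads, were left out. No cell was removed and no doublet caller was run. No pair of cells was identical. The ratio of means used a pseudocount of 1 CPM. Python 3.11.15, numpy 2.4.6, pandas 2.3.3 and scipy 1.17.1 were used. The size rule was also run on simulated counts for the ectoderm-state split, not for the CDX2 split. Its outcome is not given here, so it does not tell how many genes the rule calls wrongly. Described in full are all members meeting the rule and at most 2 others per family with the highest share of cells. Of the co-receptor and effector lists, genes meeting the rule (at most 5 per direction), NRP1, NRP2, NEO1 and DCC are named. Members, lists and pairs were chosen with earlier results of these data known. Alternatives changed the detection limit, ectoderm rule, filter, depth, scaling and cells used.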

Additional observations from a re-analysis of the deposited data

How the results depend on the processing

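With 1 pooled sample, the sets of cells are the limit: 21 to 41 cells a class, shares moving by several points per cell, and a detection limit of 3.29 to 23.8 reads. Among guidance genes, no difference in share that met the size rule changed sign under any alternative run. In X09 or X29 cells alone it could not, since the rule already asked for the same direction in both. Nor could it in the runs without the 10% detection filter or without the agreement between prefixes, which leave every share as it was. Co-receptors and effectors were not checked for sign. At 50 CPM, a limit applied to genes and class markers at once, 2 guidance genes in place of 6 were higher in ectoderm-state cells, none of them among the 6, and 0 in place of 7 in CDX2-negative cells. Leaving out each cell in turn gave 5 to 8 and 7 to 9. In the alternatives other than 50 CPM, the ectoderm-state count ran from 5 to 8. It was 5 with 1 or all 3 ectoderm markers required and 8 with CPM taken without mitochondrial genes. The CDX2-negative count ran from 5 in X09 cells alone to 10 in X29 cells alone, where EPHB1, PLXNA4, PLXND1 and SEMA3F were gained. For the other cells the count of 1 became 2 at 1 read, with median-of-ratios size factors, in X29 cells alone, and without cells of high mitochondrial share or with endothelial markers; leave-one-out gave 1 to 2. It was also 2 in 3 alternatives added after seeing the data: without cells of under 3000 genes, without cells with 1 of 3 ectoderm markers, and keeping other cells with 3 or more mesoderm markers. The gene gained was ROBO1 in each, joined by ROBO2 but without UNC5C in X29 cells; requiring all 3 ectoderm markers also replaced UNC5C by ROBO1. For CDX2-positive cells the count of 0 became 1 at 1 read and thinned to 300000 reads (SEMA6B) and in X09 cells (PLXNA2), 3 in X29 cells (PLXNA1, SEMA6B, UNC5B), and 2 without cells of high mitochondrial share or, added later, of under 3000 genes (EFNB1, SEMA6B); leave-one-out gave 0 to 1. Co-receptors and effectors higher in ectoderm-state cells numbered 3, but 6 in X09 cells, 5 in X29 cells, 5 without cells of high mitochondrial share, 5 without those with endothelial markers, 5 with other cells of 3 or more mesoderm markers, and 3 to 5 by leave-one-out. Those higher in other cells numbered 4, but 2 at 50 CPM and 7 in X09 cells. Among differences in share of single named genes, 78 planned and 3 added values moved beyond the interval of the main value, and 474 and 181 did not. The 474 and 181 include the values of the runs without the 10% filter and without prefix agreement, which could not move. The causes of these changes were not tested. No paired analysis was possible because all cells form 1 sample.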

Other observations

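CDX2 was also detected in 7 of the 27 ectoderm-state cells, which allows a side-by-side reading within that layer, with both genes chosen after their values were seen. SEMA3C was detected in 4 of the 7 CDX2-positive and 3 of the 20 CDX2-negative ectoderm-state cells. EFNA2 was detected in 0 of the 7, where up to 40.96% is still possible by the exact interval and 42.9% by a limit of 3 counts, and in 7 of the 20. PLXNC1, a plexin that binds SEMA7A, was also chosen after its values were seen. By title prefix it was detected in 0 of 14 X09 and 4 of 13 X29 ectoderm-state cells. Outside the ectoderm state it was detected in 18.2% of X09 and 0 of 18 X29 cells.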
